A study of Xenopus tropicalis with 17 samples.

Results

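The normal change of gene expression from stage 15 to stage 25 was measured by RNA-seq in whole embryos of the frog Xenopus tropicalis. The comparison rests on the 4 libraries labelled wild type for sf3b4 at these stages, 2 per stage, out of 17 libraries in the series. The other libraries came from embryos heterozygous or null for sf3b4, which encodes a subunit of the spliceosome complex SF3b, or from stage 35. Each library was a separate pool of 5 embryos grown in NAM without a listed treatment, and polyA RNA was sequenced. Heterozygous pools of the same stages, also 2 per stage, served as a second series that shares no library with the wild type. The labels do not say whether the pools of a stage came from different clutches, so the p-values cover the spread between pools only. That spread was estimated jointly from 16 libraries, the 2 pools of each of 8 groups, which include heterozygous, null and stage 35 pools. The wild type and heterozygous calls therefore share this estimate, though not their libraries.

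At stage 15 the embryo is a neurula: the neural plate is folding into a tube, neural crest cells are specified at its border, and the first somites form from presomitic mesoderm. By stage 25 it is an early tailbud embryo. The neural tube has closed, crest cells move into the pharyngeal arches, and the front somites hold differentiating muscle, while a tail bud goes on adding tissue at the rear end. Hox genes give cells their position along this head to tail axis, and genes at the front of each cluster are active nearer the head than genes at its back. In such bulk samples, fewer cells of a type and less RNA per cell cannot be told apart.

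The wild type libraries held 21370663 and 14324260 counts at stage 15 and 17278965 and 15956152 at stage 25. Defining markers of epidermis, cement gland, nerve, crest, muscle, notochord, heart, blood, vessel, kidney, endoderm and germ line had counts in all 4 pools. Among the lowest were gata1, an activator of red cell genes, at 0.108 and 0.146 CPM at stage 15, where CPM are counts scaled to a common library total, and egfl7, a vessel gene, at 0.0539 CPM in the first stage 15 pool. The stage 15 pools did not lie at the same point of the course. Genes that changed at least 4-fold in heterozygous pools, 2226 rising and 624 falling, were used as a scale on which the heterozygous stage 15 mean is 0% and the stage 25 mean 100%. The first wild type stage 15 pool lay at a median of 0% for rising and -3.45% for falling genes, and the second lay at 28.7% and 20.4%. Both stage 25 pools lay between 94.4% and 101%. Results are therefore given with both stage 15 values, and their dependence on either pool is stated beside them. Whether the second pool was collected somewhat later was not tested.

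**Figure D1:**
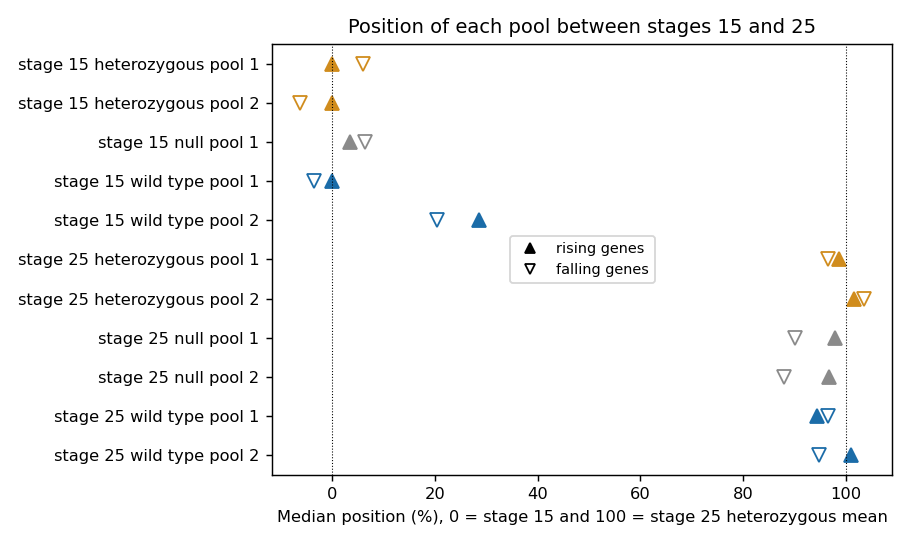
Median position (%, x axis) of each stage 15 and stage 25 pool between the heterozygous means of the stages, for rising genes (filled triangles, 2226) and falling genes (open triangles, 624), with colour giving the genotype. The second wild type stage 15 pool sits at 28.7% and 20.4%, apart from the first wild type and the null pool, between -3.45% and 6.54%. The heterozygous stage 15 pools lie between -6.11% and 6.11%, but their own mean sets the 0% point.

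Of 17742 genes tested, 7151 differed between the stages (40.3%, edgeR adjusted p under 0.05). Of these, 4151 rose (23.4% of genes tested) and 3000 fell (16.9%). Counts in the gene lists below are read against these shares. Rises were larger than falls: the median log2 fold change was 1.66 among genes that rose and -1.04 among those that fell, against 0.07 over all genes. A fitted change of at least 4-fold was found for 1721 rising and 569 falling genes, and 560 of the rising genes had 3 or fewer counts in each stage 15 pool. The pools of the stages did not overlap for 7134 of the called genes, and for 67.4% of all genes tested. Where pools do not overlap, leaving out 1 of them can hardly reverse a sign, so kept signs are no further support. Each wild type pool bears on these counts. As leaving out a pool changes the number called over all genes, a changed count in a gene list is not by itself particular to that list. Without the second stage 15 pool 4392 genes rose (24.8%) and 3205 fell (18.1%), without the first 2642 rose and 1760 fell, without the first stage 25 pool 3286 rose and 2036 fell, and without the second 3102 rose and 1918 fell. Of the 7151 genes 3472 were called in all 4 of these fits, and 7148 kept their sign in them.

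In the heterozygous pools 4828 genes rose (27.2%) and 3311 fell (18.7%). Of the wild type calls 86.7% were also called in heterozygous pools in the same direction, which is 76.2% of the heterozygous calls. In opposite directions 1 gene was called. Both sets of calls used the same joint estimate of spread, so the overlap is not one between independent tests. No gene passed the test of a difference between the heterozygous and the wild type change (0%, with edgeR and with DESeq2). In that test 657 of 17742 genes had an unadjusted edgeR p under 0.05, a share that is itself under 0.05. Without the first wild type stage 15 pool that test called 102 genes as changing more upward and 5 more downward in heterozygous pools.

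**Figure D2:**
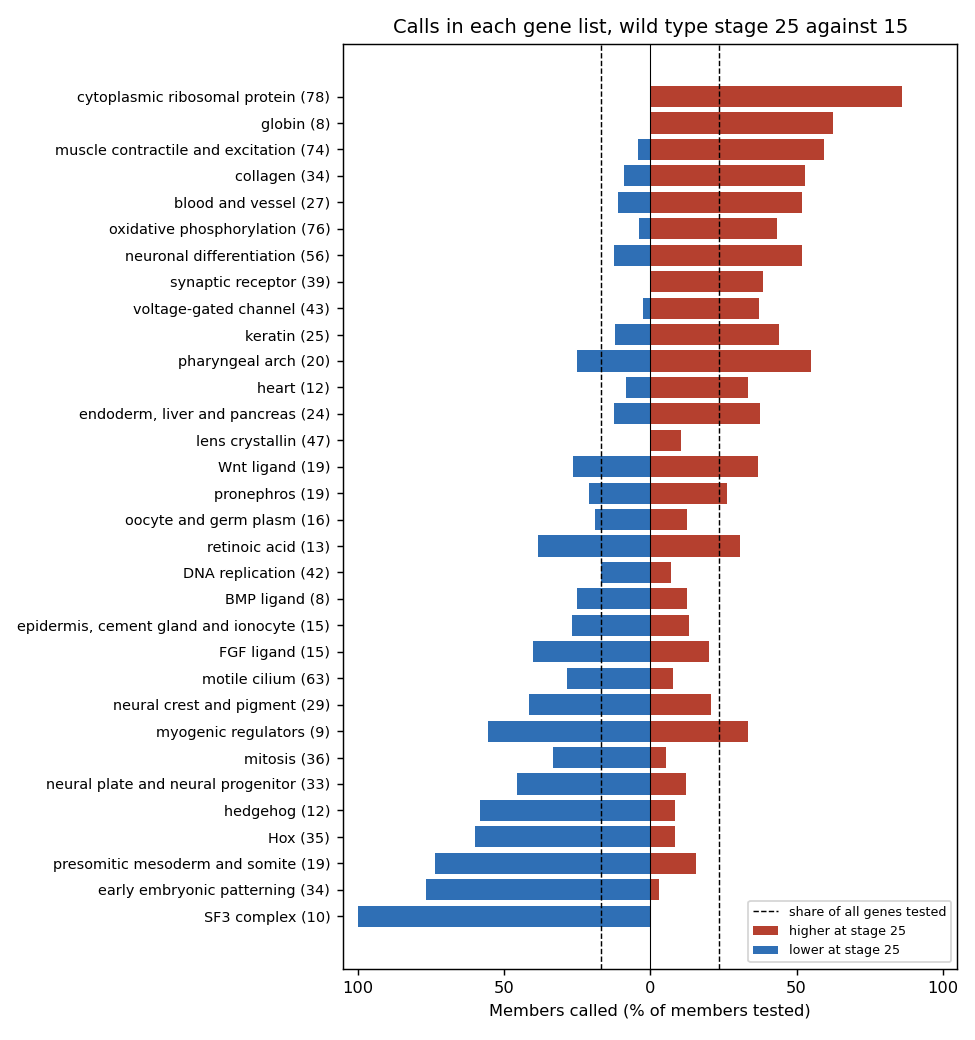
Share of tested members (x axis, %) called higher (red, to the right) or lower (blue, to the left) at stage 25 in wild type pools, for each gene list with its number of members tested in brackets. Dashed lines mark the shares over all genes tested, 23.4% higher and 16.9% lower; SF3 complex and early embryonic patterning genes stand at the lower end and ribosomal protein genes at the upper end.

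Most factors of early patterning fell. Of 34 tested genes of early patterning, 26 fell and 1 rose, with a median log2 fold change of -2.21. All 9 tested pluripotency and ventral homeobox factors fell, as did 12 of 13 mesendoderm factors. The levels of pou5f3.1, a frog relative of the mammalian pluripotency factor Oct4, were 409 and 115 CPM at stage 15 and 9.35 and 8.79 CPM at stage 25 (-4.85 log2 units, SE 0.47, edgeR adjusted p 2.8e-06). The stage 15 pools of this gene differed widely from each other, yet both were far above stage 25. A fall was likewise found for foxd4l1.1, a repressor that keeps neural ectoderm immature, from 120 and 57.4 to 4.09 and 1.47 CPM, and for vegt, a T-box factor of mesoderm and endoderm, from 79.9 and 38.4 to 2.34 and 2.95 CPM.

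Of 12 secreted signals and antagonists 5 fell, 1 rose and 6 were not called. Several of those that fell are made by the organizer, the tissue that patterns the dorsal side. Transcripts of chrd.1, whose product chordin blocks BMP signals, were at 358 and 173 CPM and then at 19.3 and 13.2 CPM (-4.03 log2 units, SE 0.34, edgeR adjusted p 9.4e-07). Those of admp, a BMP-type ligand of the same tissue, were at 107 and 28.8 CPM and then at 0.292 and 0.614 CPM. The gene cer1, an antagonist of several signals, also changed, by -3.53 log2 units. Outside this list, gdf3, a TGF-beta family ligand, changed by -6.75 log2 units. By contrast nog, which encodes the BMP antagonist noggin, had 25.2 and 15.4 CPM at stage 15 and 12.7 and 18.7 CPM at stage 25, and was not called. The single rise, of nodal1, was lost without the first stage 15 pool (edgeR adjusted p 0.074) and without the second stage 25 pool (0.051). Of the lists examined this one also differed most between the stage 15 pools: the second pool lay a median of 1.01 log2 units below the first, and 19 genes fell when the first was left out.

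Genes of the rear end of the embryo were among those with the deepest falls. The T-box gene tbx6, which specifies presomitic mesoderm, had 527 and 530 CPM at stage 15 and 1.28 and 2.09 CPM at stage 25 (-8.29 log2 units, SE 1.15, edgeR adjusted p 6.6e-05). Levels of msgn1, which acts with tbx6 in that tissue, went from 198 and 159 CPM to 0.818 and 2.33 CPM. The segmentation gene mespb, active where the next somite boundary is set, went from 40.2 and 36.6 CPM to 0.234 and 0.184 CPM. In none of these did the stage 15 pools differ by much, and both lay far above both stage 25 pools. Over the whole list, 14 of 19 presomitic and somite genes fell and 3 rose, with a median of -1.65. Among the falling genes were cdx4, a caudal homeobox factor, at 434 and 282 CPM and then 38.5 and 43.3 CPM, and fgf8, a growth factor of the growing tail end, at 144 and 114 CPM and then 50.02 and 32.6 CPM. The notochord and tail bud factor tbxt fell by 3.72 on the log2 scale, from 119 and 99.3 to 8.24 and 8.36 CPM. The 3 genes that rose were ripply3, a repressor of pharyngeal tissue, from 30.2 and 30.6 to 114 and 91.4 CPM, and the sclerotome and pharyngeal pouch factors pax1 and pax9.

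Low levels of rear end transcripts were also found at stage 25 in the other genotypes, with 1 exception. For tbx6, all stage 15 pools of any genotype lay between 526 and 626 CPM, and the stage 35 pools between 0.217 and 0.406 CPM. The stage 25 pools lay between 1.28 and 6.94 CPM, except the first null pool with 93.6 CPM. The same pool had 26.4 CPM of hoxa9 against 5.96 to 8.72 CPM in the other stage 25 pools, and 16.1 CPM of msgn1 against 0.818 to 2.80 CPM. Most of the rear end genes followed had their highest stage 25 value in this pool. The margin was wide in esr-5, with 29.9 against at most 8.18 CPM, and narrow in cdx2, with 85.1 against at most 84.7 CPM. The exceptions were cdx1, fgf8 and mespb, with 11.3, 38.4 and 2.36 CPM. The other stage 25 pools held 5.73 to 12.3, 32.6 to 50.02 and 0.184 to 3.86 CPM of these. These pools and genes were set side by side after their values were seen. The labels call every sample a whole embryo and do not say how embryos were genotyped. Whether the tail end was present in the stage 25 and stage 35 pools was not tested. Less transcript in rear end tissue and less of that tissue in the pools therefore cannot be told apart for any of these genes. The same limit holds for members of any list, above or below, that are active at the tail end. Examples are tbxt, which the early patterning list also holds, cdx2 and wnt5b.

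Of 35 Hox genes tested, 21 fell and 3 rose, and the median change differed by paralogue group. Whether tail tissue was present in the stage 25 pools was not tested for these genes either: the first null pool had 12.95 CPM of hoxc9 and 4.65 CPM of hoxd10, against at most 6.33 and 1.57 CPM in the other stage 25 pools. In paralogue groups 1 to 4, the most anterior, 5 of 13 fell and 2 rose, with a median log2 fold change of -0.20. In groups 5 to 8, 7 of 11 fell and 1 rose, with a median of -1.38, and in groups 9 to 13, 9 of 11 fell and none rose, with a median of -3.49. Heterozygous pools gave medians of -0.28, -1.50 and -3.47. The levels of hoxa9 were 76.1 and 88.7 CPM at stage 15 and 5.96 and 8.72 CPM at stage 25, and those of hoxc9 were 38.2 and 35.1 and then 4.38 and 6.33 CPM. Transcripts of hoxc13 were counted 28 and 37 times at stage 15 and not at all at stage 25, which is at least 11.7-fold lower if each stage 25 pool is set to 3 counts. The posterior gene hoxb9 did not follow its neighbours, at 60.8 and 81.8 CPM and then 78.8 and 79.6 CPM (edgeR adjusted p 0.62). Of the genes that rose, hoxa4 went from 7.97 and 6.22 to 21.1 and 18.8 CPM and hoxb5 from 10.7 and 12.1 to 23.4 and 20.8 CPM. Whether counting used strand is not known, so antisense transcripts of these clusters could be included.

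**Figure D3:**
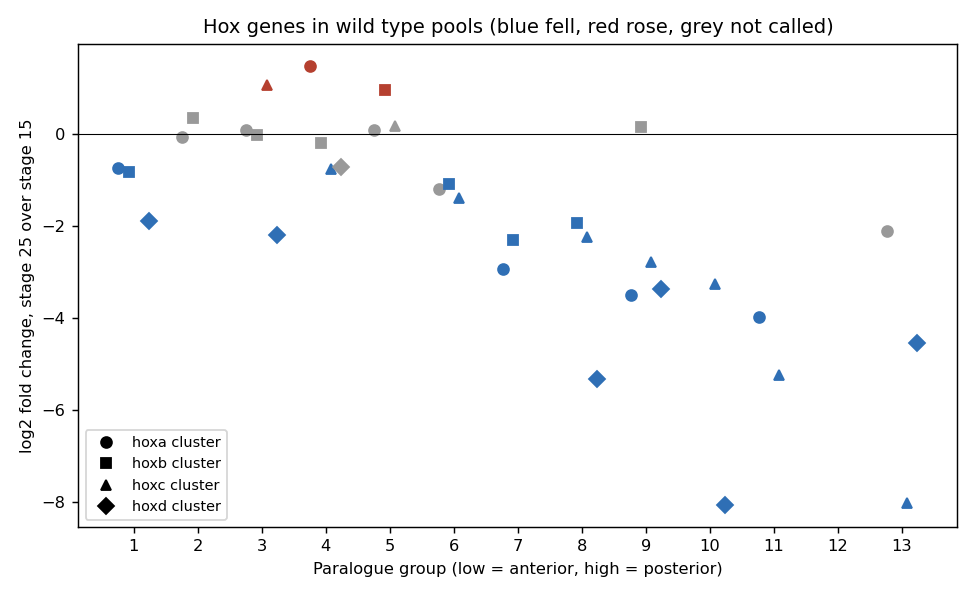
Log2 fold change, stage 25 over stage 15, of 35 Hox genes in wild type pools (y axis) by paralogue group (x axis), with marker shape for the cluster and colour for the call. Groups 9 to 13 lie lowest, with a median of -3.49, and hoxb9 stands apart at 0.15; for hoxd10, hoxc13 and hoxd13 the stage 25 pools held 3 or fewer counts each, and their plotted values depend on the fit.

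Of 9 myogenic regulators, 5 fell and 3 rose. The determination factor myf5 fell from 223 and 166 CPM to 3.68 and 4.98 CPM (-5.49 log2 units, SE 0.47, edgeR adjusted p 1.0e-06), and myod1, which switches cells to the muscle fate, fell from 109 and 79.9 to 21.0 and 23.5 CPM. The late factor myf6 rose from 6.09 and 10.8 to 38.4 and 62.6 CPM, and mef2c, which activates contractile genes, rose from 6.62 and 13.6 to 45.3 and 34.0 CPM. A further late factor, myog, had 1.67 CPM in the first stage 15 pool and between 8.36 and 9.47 CPM in the other 3 pools, and was not called (edgeR adjusted p 0.26, or 0.00015 without the second stage 15 pool).

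Of 74 tested genes of the contractile and excitation apparatus, 44 rose and 3 fell, with a median log2 fold change of 1.29, which was 0.89 without the first stage 15 pool and 1.99 without the second. By role, 11 of 15 thin filament genes, 12 of 19 thick filament genes, 8 of 15 Z-disc and assembly genes and 10 of 20 genes of calcium release and the nerve-muscle junction rose. Myosin binding protein mybpc3 had 16.2 and 18.9 CPM at stage 15 and 200 and 223 CPM at stage 25 (3.59 log2 units, SE 0.18, edgeR adjusted p 5.0e-08), the smallest p of all genes tested. The M-band protein gene myom2 was counted 1 and 3 times at stage 15 and 820 and 879 times at stage 25, or 47.9 and 54.0 CPM. For cav3.1, a caveolin of the muscle membrane, no count was found at stage 15 against 4.73 and 5.28 CPM at stage 25, at least 26.3-fold higher with each stage 15 pool set to 3 counts. Of 5 genes of muscle energy supply 3 rose and 2 were not called, and ckm, muscle creatine kinase, went from 9.10 and 27.2 to 200 and 265 CPM.

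Abundant muscle genes separated the stage 15 pools. The myosin heavy chain gene myh8 had 272 CPM in the first pool and 1559 CPM in the second, and 4130 and 3564 CPM at stage 25. Its rise of 2.07 log2 units (SE 0.50, edgeR adjusted p 0.0043) was 1.29 without the first stage 15 pool and 3.83 without the second. Troponin gene tnnc2 had 28.1, 120, 860 and 883 CPM in the same order. In both genes the second pool lay above the first and below the stage 25 pools. Over the list the second stage 15 pool was a median of 0.85 log2 units above the first, against 0 over all genes. Among all genes, too, fewer were called as rising without the first stage 15 pool. Without the first stage 15 pool 27 muscle genes rose and 5 fell, and without the second 49 rose and 2 fell. A few members fell: the myosin chaperone unc45b went from 247 and 232 to 74.7 and 88.8 CPM, and ryr1, a calcium release channel, from 161 and 198 to 75.1 and 61.5 CPM.

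**Figure D4:**
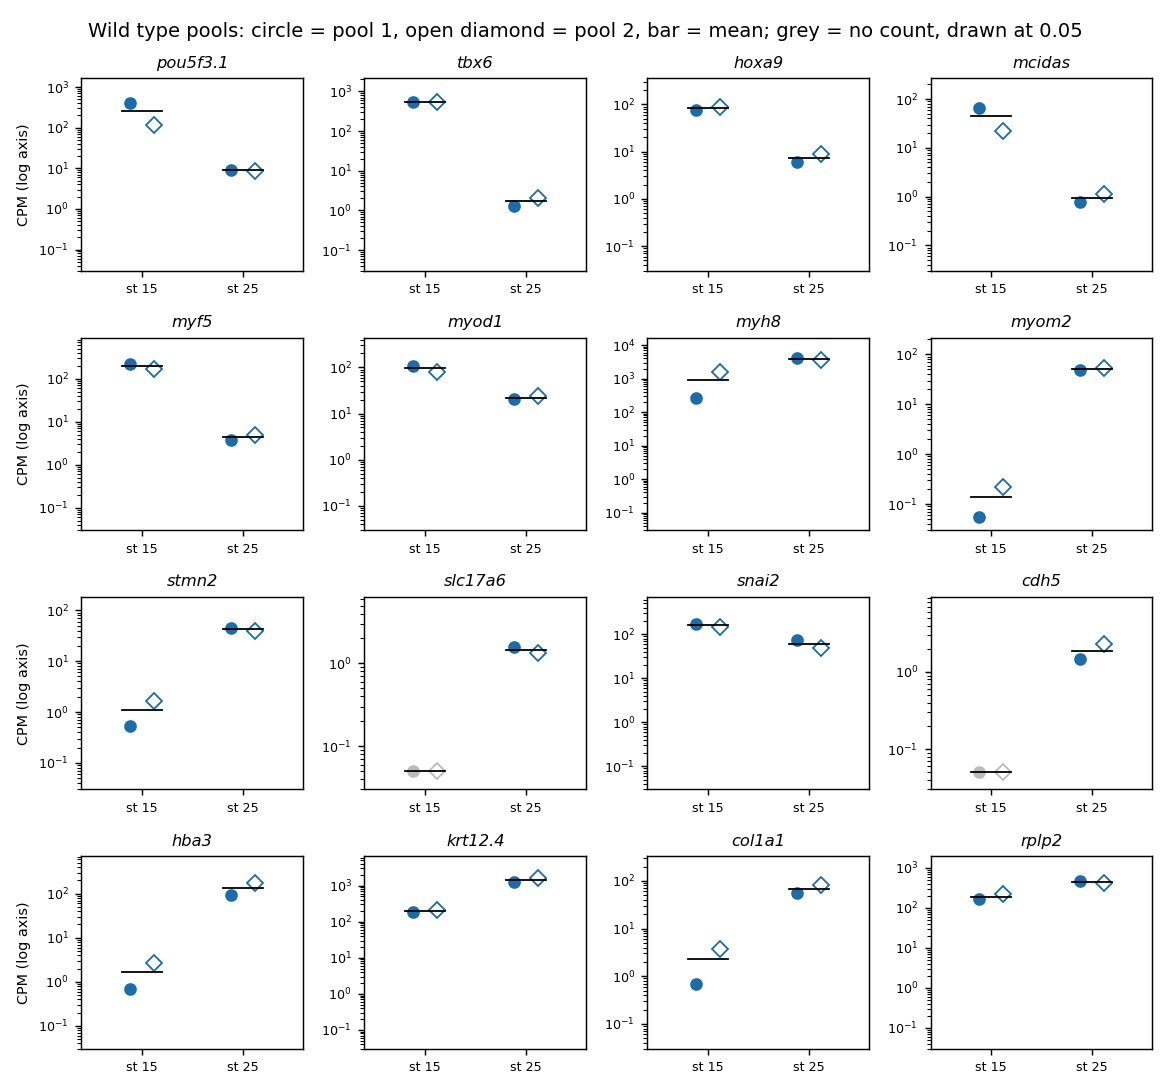
Level (CPM, log axis) of 16 genes in the stage 15 and stage 25 wild type pools, pool 1 as a circle, pool 2 as an open diamond and the mean as a bar; grey marks stand for no count and are drawn at 0.05. Early, posterior and determination genes such as pou5f3.1, tbx6, hoxa9 and myf5 go down, while muscle, neuron, vessel, globin and collagen genes go up, and myh8 shows 272 and 1559 CPM in the stage 15 pools.

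**Figure D5:**
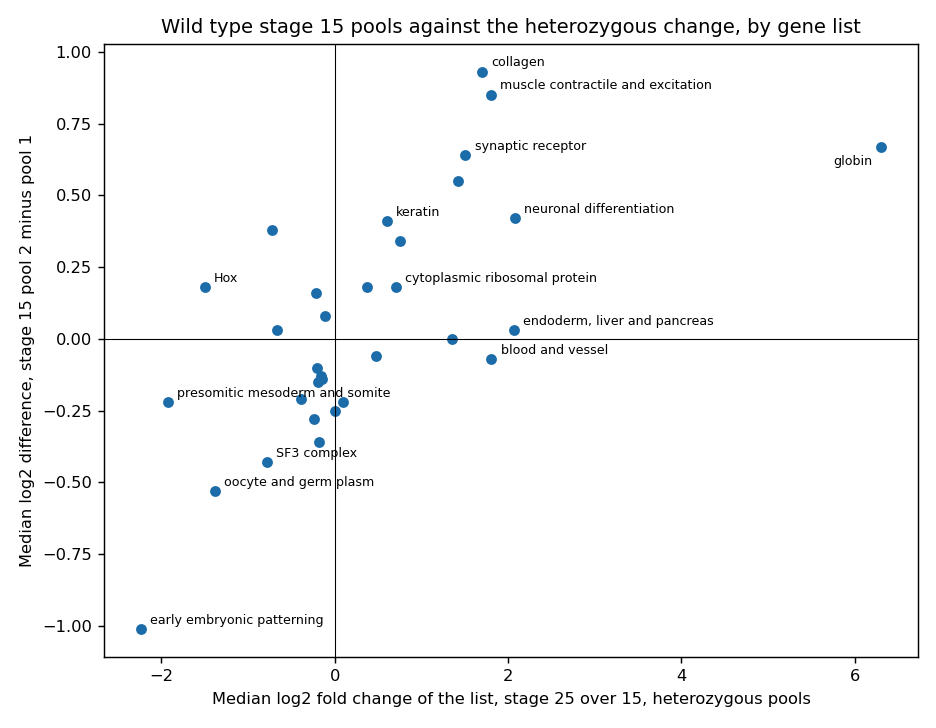
Each point is a gene list: median log2 fold change of its members from stage 15 to 25 in heterozygous pools (x axis) against the median log2 difference of the second from the first wild type stage 15 pool (y axis). Early patterning lies at -1.01 and collagen and muscle lists at 0.93 and 0.85 on the y axis, while presomitic and Hox lists, which fell over time, lie at -0.22 and 0.18.

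Of 33 neural plate and progenitor genes, 15 fell and 4 rose, and 57.6% were called against 40.3% of all genes. Among them zic2, a zinc finger factor of the plate and its border, fell from 296 and 190 to 88.6 and 66.3 CPM, and otx2, a forebrain and midbrain factor, fell from 185 and 170 to 108 and 87.8 CPM. The general neural factor sox2 had 445 and 332 CPM and then 354 and 266 CPM, and was not called (edgeR adjusted p 0.18). Of the rising genes, fabp7, a fatty acid binding protein of radial glia, went from 1.29 and 3.07 to 13.4 and 20.6 CPM, and en1, a factor of the midbrain-hindbrain border, from 0.108 and 0.293 to 5.61 and 4.30 CPM. Fewer plate genes fell, 9 and 8, without the first stage 15 pool and without the second stage 25 pool.

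Of 56 neuronal genes, 29 rose and 7 fell, with a median of 1.77, or 1.19 with genes of 3 or fewer counts at their bound. Among proneural and early neurogenic factors 4 of 14 rose and 3 fell, with a median of -0.01. The 50% called stands against 40.3% of all genes, of which 23.4% rose and 16.9% fell. The Notch ligand gene dlc fell from 340 and 442 to 116 and 127 CPM. Cytoskeletal and RNA-binding proteins of neurons rose in 11 of 15 cases. They included stmn2, a microtubule regulator of growing axons, at 0.539 and 1.68 CPM and then 45.3 and 39.6 CPM (5.33 log2 units, SE 0.33, edgeR adjusted p 7.2e-08). Growth cone gene gap43 rose from 0.377 and 0.585 to 17.7 and 20.6 CPM, and elavl4, an RNA-binding protein of neurons, from 0.539 and 1.76 to 29.3 and 30.9 CPM. In contrast elavl3, of the same family, had 202 and 215 CPM and then 232 and 154 CPM, and was not called. The falling count of this list was 4 without the first stage 15 pool or without either stage 25 pool.

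Of 15 synaptic vesicle and transmitter genes 11 rose. For slc17a6, a vesicular glutamate transporter, no count was found at stage 15 against 1.58 and 1.35 CPM at stage 25, at least 7.69-fold higher. The inhibitory transporter slc32a1 rose from 0.215 and 0.366 to 14.4 and 10.8 CPM and the acetylcholine transporter slc18a3 from 0.970 and 1.83 to 10.3 and 8.42 CPM. Of 43 voltage-gated channel genes tested, 16 rose and 1 fell, and of 39 transmitter receptor genes 15 rose and none fell. The shares called, 39.5% and 38.5%, are near the 40.3% of all genes, of which 23.4% rose and 16.9% fell. The potassium channel gene kcnq3 went from 0.377 and 0.366 to 9.58 and 8.85 CPM, and the nicotinic receptor gene chrna7 from no count to 1.05 and 0.860 CPM, at least 5.02-fold higher. The rising channel and receptor genes were 10 and 8 without the first stage 15 pool, when 2 of each list fell, and 1 receptor gene fell without the second stage 25 pool. Some of these channel and nicotinic receptor genes also act in muscle.

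Of 17 crest specifiers, 11 fell and none rose, and 64.7% were called against 40.3% of all genes. The levels of foxd3, a factor that keeps crest cells uncommitted, were 106 and 95.9 CPM at stage 15 and 34.8 and 32.8 CPM at stage 25 (-1.57 log2 units, SE 0.20, edgeR adjusted p 2.6e-05), and snai2, which promotes crest migration, fell from 174 and 148 to 73.0 and 47.8 CPM. Not called were twist1, with 134 and 150 and then 149 and 138 CPM, and sox10, with 28.9 and 62.8 and then 72.9 and 40.8 CPM. For sox10 the pools of each stage differed more than the stages did. Of 8 pigment genes 6 rose, among them oca2, of melanosome function, from 2.69 and 7.02 to 17.3 and 25.9 CPM, and dct, a melanin synthesis enzyme, from 8.99 and 7.54 to 14.7 and 28.3 CPM. Over the crest and pigment list 6 genes rose and 12 fell, and 8 fell without the first stage 15 pool.

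In the pharyngeal arches, 11 of 20 genes rose and 5 fell, and 80% were called against 40.3% of all genes. Members of the distal-less family went different ways. The genes dlx1 and dlx2 rose, from 3.12 and 4.90 to 26.1 and 29.9 CPM and from 18.9 and 15.4 to 58.4 and 64.9 CPM. The genes dlx5 and dlx6, which pattern the lower jaw region and also mark the early epidermal border, fell from 152 and 98.5 to 62.1 and 54.0 CPM and from 104 and 95.2 to 34.1 and 23.9 CPM. The jaw and heart factor hand2 rose from 1.83 and 2.56 to 18.9 and 29.8 CPM, and its upstream signal edn1, endothelin, rose from 2.64 and 5.41 to 10.9 and 12.3 CPM. Leaving out the first stage 15 pool gave 6 rising and 3 falling arch genes. The falling count was 2 and 3 without the first and the second stage 25 pool.

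Blood and vessel genes rose in 14 of 27 cases and fell in 3, and 63.0% were called against 40.3% of all genes. The vascular cadherin gene cdh5 had no count at stage 15 and 1.46 and 2.33 CPM at stage 25, at least 9.96-fold higher. For erg, a transcription factor of endothelium, 0.108 and 0.293 CPM became 5.43 and 9.64 CPM, and for fli1, a related factor, 3.39 and 2.85 CPM became 18.4 and 27.2 CPM. The stage 15 pools of egfl7 stood at 0.0539 and 4.54 CPM and the stage 25 pools at 69.5 and 72.2 CPM. Of 8 globin genes tested 5 rose: hba3 went from 0.700 and 2.63 to 91.3 and 175 CPM (6.39 log2 units, SE 0.68, edgeR adjusted p 7.3e-06), and hbe1 from 0.646 and 0.878 to 31.6 and 74.0 CPM. The stage 25 pools differed from each other in both, and without the second of them 3 globin genes rose. The globin genes lie close to each other in sequence, so reads could be shared between copies. Of the early factors, gata2, active in blood precursors and epidermis, fell from 448 and 247 to 152 and 123 CPM; the falling count of 3 became 1 without the first stage 15 or the second stage 25 pool.

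The heart, kidney and endoderm lists are read against the 23.4% of all genes that rose and the 16.9% that fell, and the kidney shares are near these. Of 12 heart genes 4 rose and 1 fell, and the 41.7% called is near the 40.3% of all genes. The cardiac factor tbx5 rose from 0.700 and 1.097 to 7.01 and 11.2 CPM and gata5 from 28.8 and 26.9 to 68.9 and 82.6 CPM, while nkx2-5 had 46.6 and 36.9 and then 40.0 and 38.6 CPM and was not called. The single fall, of tbx3, was not called without the first stage 15 or the first stage 25 pool (edgeR adjusted p 0.19 and 0.17), and 2 genes fell without the second stage 15 pool. Of 19 kidney genes 5 rose and 4 fell. The podocyte factor wt1 rose from 0.108 and 0.585 to 5.96 and 10.4 CPM, and pax8, which specifies the kidney field, fell from 78.5 and 111 to 53.2 and 39.9 CPM. Without the second stage 15 pool 8 kidney genes rose. Of 24 endoderm and liver genes 9 rose and 3 fell. The hepatic factor hnf4a rose from 4.74 and 3.07 to 19.9 and 26.9 CPM, and prox1, active in liver and lymphatic precursors, from 0.0539 and 0.366 to 6.02 and 7.13 CPM, whereas cdx1 and cdx2, of the hindgut and tail end, fell by 3.93 and 2.45 on the log2 scale. The liver product ttr, transthyretin, was at 7.71 and 15.1 CPM at stage 25 and had a mean of 1701 CPM at stage 35.

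Multiciliated cells of the skin carry motile cilia that move fluid over the embryo. Of 9 factors that start their formation 5 fell and 1 rose, and 4 of 5 basal body amplification genes fell. The master regulator mcidas was at 66.4 and 22.5 CPM and then at 0.760 and 1.11 CPM (-5.57 log2 units, SE 0.46, edgeR adjusted p 8.1e-07). In the same programme cdc20b, needed to release new centrioles, fell from 51.1 and 29.3 to 0.993 and 1.23 CPM, and ccno fell from 45.8 and 14.4 to 3.62 and 4.36 CPM. Genes of the ciliary shaft changed less in wild type pools, with 4 of 35 up and 5 down. The 25.7% called stands against 40.3% of all genes. In heterozygous pools 12 of the 35 rose and 4 fell, where 27.2% and 18.7% of all genes did. One of those that rose in wild type pools, tekt3, a filament protein of the axoneme, had 8.13 and 37.0 CPM and then 92.1 and 90.3 CPM. Over the cilium list 5 genes rose and 18 fell, and 36.5% were called against 40.3% of all genes. The rising count was 2 and 8 without the first and second stage 15 pool and 3 without either stage 25 pool, and 10 fell without the second stage 25 pool.

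Over the list of epidermis, cement gland and ionocyte genes 2 of 15 rose and 4 fell. The 40% called is near the 40.3% of all genes. The falls were all among the 6 epidermal factors, and of these grhl1, a regulator of barrier genes, went from 223 and 182 to 99.2 and 83.2 CPM. Without the first stage 15 pool or the second stage 25 pool, 1 member of the epidermis list fell instead of 4. Of 25 keratin genes 11 rose and 3 fell, and 56% were called against 40.3% of all genes. Embryonic skin keratin krt12.4 rose from 189 and 217 to 1300 and 1605 CPM (2.84 log2 units, SE 0.39, edgeR adjusted p 6.2e-05), while the simple epithelium keratins krt8.1 and krt18.1 fell from 4806 and 3364 to 2094 and 2119 CPM and from 3592 and 2802 to 1666 and 1549 CPM. Rising keratin genes were 7 without the first stage 15 pool. The lectin itln1, secreted by skin, rose from 47.2 and 160 to 449 and 616 CPM. Keratin genes form groups of similar copies, and their single values are uncertain for that reason.

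Of 34 collagen genes 18 rose and 3 fell, with a median of 1.27, or 0.93 with genes of 3 or fewer counts at their bound. The median of 1.27 became 0.69 without the first stage 15 pool and 2.01 without the second. The fibrillar chain col1a1 had 0.700 and 3.80 CPM at stage 15 and 56.6 and 81.2 CPM at stage 25 (5.01 log2 units, SE 0.49, edgeR adjusted p 3.0e-06), and col3a1 had 0.323 and 0.146 CPM and then 29.9 and 56.5 CPM. Chains of collagen VI, which borders muscle fibres, rose as well, and col6a1 went from 1.56 and 6.14 to 97.2 and 113 CPM. In contrast col2a1, the chain of notochord and cartilage, had 609 and 1283 CPM and then 1001 and 943 CPM, and was not called. The second stage 15 pool lay a median of 0.93 log2 units above the first in this list. Of the falling chains, 1 was called without the second stage 25 pool.

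Most ribosomal protein genes rose and the SF3 genes fell, by small steps. Of 78 ribosomal protein genes 67 rose and none fell, with a median log2 fold change of 0.67. For example rplp0, of the ribosomal stalk, had 294 and 303 CPM and then 626 and 629 CPM. The count of 67 was 32 without the first stage 15 pool and 28 without the first stage 25 pool. All 10 genes of the SF3 complex, which recognises the branch site of introns, fell by 0.50 to 1.09 on the log2 scale. The gene mutated in this series, sf3b4, had 288 and 210 CPM in the neurula pools, then 144 and 146 CPM (-0.78 log2 units, SE 0.20, edgeR adjusted p 0.0064), and both stage 15 pools lay above both stage 25 pools. Leaving out the first stage 15 pool left 3 of the 10 as falling, and sf3b4 was not among them (edgeR adjusted p 0.079). In that list the second stage 15 pool lay a median of 0.43 log2 units below the first. In heterozygous pools all 10 fell too.

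Cell cycle genes fell in smaller numbers. Of 36 mitosis genes 12 fell and 2 rose, and the 38.9% called is near the 40.3% of all genes. Most of these calls were falls, while over all genes more rose (23.4%) than fell (16.9%). Of 42 replication genes 7 fell and 3 rose. The falling share of 16.7% is near the 16.9% of all genes, while the 23.8% called is below their 40.3%. The embryonic cyclin ccna1 fell from 39.7 and 37.9 to 4.44 and 0.860 CPM. Not every member fell: cdk1, the mitotic kinase, rose from 173 and 178 to 313 and 313 CPM, and cdc45, a helicase component, rose from 11.1 and 11.1 to 23.5 and 24.1 CPM. With the first stage 15 pool left out 5 mitosis and 2 replication genes fell, and without the first stage 25 pool 6 and 3. Without the second stage 15 pool 11 replication genes fell, and without the second stage 25 pool 1 mitosis gene rose. Of 76 respiratory chain and ATP synthase genes 33 rose and 3 fell, and 47.4% were called against 40.3% of all genes. One of them, sdhc, a subunit of complex II, went from 6.03 and 6.73 to 20.4 and 17.8 CPM. Rising genes of this list were 21 without the first stage 25 pool and 22 without the first stage 15 pool, and falling genes were 1 when any of these or the second stage 25 pool was left out.

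Within families of signals, some members rose and others fell, as among all genes, of which 23.4% rose and 16.9% fell. Of 19 Wnt ligands 7 rose and 5 fell, and 63.2% were called against 40.3% of all genes. Among those that fell, wnt8a went from 91.9 and 84.3 to 24.7 and 29.4 CPM and wnt5b from 169 and 145 to 42.9 and 42.9 CPM. For wnt5b, one of the rear end genes, the presence of tail tissue at stage 25 was not tested either. Among those that rose, wnt2 had no count at stage 15 and 1.40 and 3.26 CPM at stage 25, at least 12.2-fold higher, and wnt9a went from 0.323 and 0.293 to 5.55 and 4.36 CPM. Falling Wnt genes were 3 without the first stage 15 pool. Of 15 FGF genes 6 fell and 3 rose, and 60% were called. The rising genes included fgf13, an intracellular member of neurons, which went from 1.72 and 1.54 to 12.97 and 15.3 CPM. Of 8 BMP genes 2 fell and 1 rose, and the 37.5% called is near the 40.3% of all genes. The fall of bmp4 (189 and 158, then 130 and 109 CPM) and the rise of bmp3 were each lost on leaving out single pools, with edgeR adjusted p of 0.13 for bmp4 without either the first stage 15 or the second stage 25 pool, and 0.18 and 0.46 for bmp3 without the second stage 15 and the second stage 25 pool.

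Retinoic acid genes changed on both sides of the pathway, and 69.2% of the 13 tested were called against 40.3% of all genes. The synthesis enzyme aldh1a2 fell from 274 and 116 to 56.0 and 48.0 CPM, and the receptor rarg fell from 486 and 360 to 138 and 127 CPM (-1.67 log2 units, SE 0.17, edgeR adjusted p 3.5e-06). In contrast the synthesis enzymes aldh1a3 and aldh1a1 rose from low levels. Their values went from 0.862 and 0.585 to 0.935 and 5.04 CPM, and from 0.108 and 0.366 to 0.526 and 1.17 CPM. Both of these calls were lost without the second stage 25 pool. The aldh1a3 call was also lost without the second stage 15 pool, and the aldh1a1 call without the first. The degrading enzyme cyp26b1 rose from 0.700 and 1.32 to 13.9 and 13.6 CPM, and the receptor rarb rose from 2.85 and 3.73 to 10.4 and 11.1 CPM. Over 13 genes of this pathway 4 rose and 5 fell, with 2 rising when the second stage 25 pool was left out. Of 12 hedgehog genes 7 fell and 1 rose, and 66.7% were called against 40.3% of all genes. The signal transducer smo fell from 236 and 206 to 123 and 111 CPM and the target gli1 from 65.1 and 57.5 to 31.0 and 33.3 CPM, while hhip, an inhibitor that binds the ligand, rose from 2.21 and 2.27 to 8.06 and 11.8 CPM. The ligand shh had 81.5 and 107 and then 77.5 and 66.1 CPM, and was not called. The hedgehog falls numbered 3, 4 and 3 without the first stage 15, the first stage 25 and the second stage 25 pool.

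The largest rises among named genes began at no count or almost none. They included g6pc.2, a glucose-6-phosphatase, with no count at stage 15 and 15.8 and 28.0 CPM at stage 25, at least 115-fold higher. Others were ppp1r3a, which targets a phosphatase to glycogen in muscle, at 7.19 and 15.1 CPM, at least 58.4-fold higher, and mmp9.1, a matrix-degrading enzyme, at 6.49 and 13.5 CPM, at least 52.5-fold higher, both without a count at stage 15. Besides rear end genes, the largest falls included gs17, a gastrula gene, counted 207 and 57 times at stage 15 and 1 and 0 times at stage 25, and dkk2, a Wnt modulator, counted 110 and 113 times and then 2 and 1 times.

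In share of all counts, which also depends on transcript length, the largest gain was that of krt12.3, a larval keratin, from 4230 and 5639 to 11910 and 11220 CPM (1.23 log2 units, SE 0.21, edgeR adjusted p 0.00044). The largest loss was that of eef1a1o, the oocyte-type form of an elongation factor, from 12440 and 7063 to 4355 and 3131 CPM. The RNA-binding protein genes cirbp and hnrnpa1 and the chromatin protein gene hmgb2 also fell, with changes of -0.64, -0.78 and -0.64 log2 units. These 3 falls were not called without the first stage 15 pool, at edgeR adjusted p of 0.14, 0.057 and 0.13, and those of cirbp and hmgb2 were not called without the second stage 25 pool either (0.082 and 0.064).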

How the data were processed

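RNA-seq libraries of whole embryos were grouped by the stage and genotype in their titles. Raw read counts per gene were deposited by the authors, 1 table per library with 26531 genes, per the file headers. The labels' protocols give polyA selection and a stranded library kit, and the submitters' processing notes name bcl2fastq 2.20 and STAR. Genome build, annotation, counting program and use of strand are not given in the sources used here, so overlapping, antisense and near-identical genes are uncertain. A RefSeq gene table was used for names only, and no sequence was used.

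Genes were filtered with filterByExpr (minimum count 10, minimum total 15), which left 17742. Groups were compared with edgeR 4.0.16 in R 4.3.3 (quasi-likelihood test, two-sided, TMM scaling) in 1 fit of 16 libraries and 8 groups with 8 residual degrees of freedom; the single stage 15 null library was not fitted. Adjustment was Benjamini-Hochberg over all genes tested, with calls under 0.05. The biological coefficient of variation was 20.7%. CPM uses TMM-scaled library sizes. Where all pools of a stage had no count, folds are bounds computed at 3 counts per library. Reads are not independent molecules, so such bounds cover counting error only.

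The comparison, the 32 gene lists and the rule for named genes were chosen with earlier results of these data known. That rule took the 10 largest rises and falls among called genes with a mean of at least 2 CPM, non-overlapping pools and a name other than LOC or XB numbers, the 5 largest CPM gains and losses, up to 4 called members of smallest p per list and direction, and sf3b4. Further list members were named after their values were seen, as were the rear end genes followed in all libraries. The symbols chrd, des, cav3, slc26a4 and rrm2 were read under numbered names such as chrd.1, and gbx2, gad1, ripply2, hes7, meox1, act3, myh1, mb, klf1, slc5a1, umod and rsph4a were not used. On simulated counts with 17486 genes, of which 200 were changed, 47% of 2-fold and 95% of 4-fold changes were recovered, with 7 false among 149 calls. The changed genes had at least 2 CPM, and both stage 15 pools were given the same mean. In the data 40.3% of genes were called and the stage 15 pools differed, so recovery there may be different. Alternatives were DESeq2 1.42.0, its size factors, no filter, a fit of the compared groups only, a replicate block, and leaving out each pool.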

Additional observations from a re-analysis of the deposited data

How the results depend on the processing

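With DESeq2 4079 genes rose and 3370 fell, with its size factors in edgeR 3958 and 3261, and with no filter on low counts 4256 and 2952. With the wild type pools alone in the fit 2567 rose and 1851 fell. A replicate block gave 3907 and 2707. The differences between replicates 1 and 2 correlated at -0.0398 between the stages. That value cannot show whether equal numbers mark pairs, as clutches are not given and the stage 15 pools also differed in position. Leaving out 1 wild type pool at a time gave 2642 to 4392 rising and 1760 to 3205 falling genes, and 1 heterozygous pool 3274 to 4074 and 1914 to 2847. In these fits the lone pool of a stage is assumed to vary like the other groups. The test of the heterozygous minus the wild type change called 22 and 1 genes with no filter, and between 0 and 102 upward and 0 and 5 downward when single pools were left out. The cause was not tested. Of 226 genes chosen by the naming rule, no sign was reversed under any of these alternatives; the call was lost for none with DESeq2, 1 with its size factors, 2 with no filter, 6 with the block, 30 with the wild type pools alone, and 34, 8, 18 and 31 without the first and second stage 15 and the first and second stage 25 pool. Kept signs are no further support for these genes, which were chosen as called in the same pools. Depth limits genes with few counts: 601 tested genes had 3 or fewer counts in each of the 4 pools. A planned search for promoter motifs was not run, as no sequence was used here.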

Other observations

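Of 47 lens crystallin genes tested, 35 had 3 or fewer counts in every wild type pool of stages 15 and 25, and 5 rose, a share of 10.6% against 23.4% over all genes. The levels of cryba1, a structural protein of the lens, were 0.269 and 0.0732 CPM at stage 15 and 9.82 and 20.9 CPM at stage 25 (6.32 log2 units, SE 1.49, edgeR adjusted p 0.0037), and those of cryba4 were 0.269 and 0.0732 CPM and then 5.08 and 6.88 CPM. With the first stage 15 pool left out, 3 crystallin genes rose.

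Of 16 genes of the oocyte and germ plasm, 3 fell and 2 rose, so 31.25% were called against 40.3% of all genes. The germ plasm gene tdrd6 fell from 52.4 and 60.6 to 30.6 and 19.5 CPM, while ddx4, which encodes the germ cell helicase Vasa, had 59.7 and 46.0 and then 42.8 and 48.7 CPM, and was not called. Without the first stage 15 pool 1 gene of this list rose and 1 fell, and without the first stage 25 pool 1 rose and 2 fell. For dazl, a germ cell RNA-binding protein, the 4 pools had 44.0, 18.4, 24.2 and 37.8 CPM, so the pools of a stage differed more than the stages.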
